A study of Mus musculus with 16 samples.

Results

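The genes described here are a list of 39 genes of hepatic stellate cells and of the extracellular matrix, measured by RNA sequencing of mouse liver. They were chosen by name, as the rows of the deposited gene table whose symbol was on the list, with 1 row for each Ensembl gene ID, and all 39 were found among 24082 gene IDs. The list holds 14 collagen chains, 3 small proteoglycans, 5 other matrix glycoproteins, 2 matrix metalloproteinases with 3 of their inhibitors, 3 lysyl oxidases, a growth factor and a growth factor receptor, 5 stellate cell genes and 2 genes of contractile or mural cells. After a filter on low values 37 of them were tested, and Timp1 and Lox were too low.

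Hepatic stellate cells lie between hepatocytes and the sinusoidal endothelium, store vitamin A as retinyl esters, and are the main source of fibrillar collagen when the liver scars. When activated they lose their vitamin A, divide in response to platelet-derived growth factor, and under transforming growth factor beta they turn into contractile cells that express smooth muscle actin and deposit matrix. The amount of matrix is also set by metalloproteinases, which cut it, by their tissue inhibitors, and by lysyl oxidases, which crosslink collagen and elastin. Some of the listed genes are also expressed by other liver cells, since hepatocytes secrete plasma fibronectin and collagen XVIII, and portal fibroblasts and vessel wall cells make collagens too.

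Liver RNA came from female C57BL6/J mice that began the Lieber-DeCarli liquid diet at 9 to 11 weeks of age, with 4 libraries in each of 4 groups. Pair vehicle received the control liquid diet, in which maltose dextrin replaced ethanol, and Pair IMC the same diet with iodomethylcholine (IMC), a small molecule inhibitor of the choline trimethylamine lyase of gut bacteria, at 0.06% wt/wt. EtOH vehicle received the diet with ethanol, raised in steps to 6% vol/vol over a chronic feeding of 24 or 25 days, and EtOH IMC received ethanol and IMC together. The comparisons ask how the list responded to blocking microbial trimethylamine production and to chronic ethanol. The study describes a lower diet intake and body weight with IMC under ethanol, and this cannot be told apart from IMC itself in EtOH IMC. A figure legend of the study also marks a body weight difference between pair-fed mice with and without IMC. Body weight therefore cannot be told apart from IMC in Pair IMC or in the IMC effect averaged over diets either. Libraries numbered 1 to 8 were Pair IMC and EtOH vehicle and those numbered 9 to 16 were Pair vehicle and EtOH IMC, so each comparison of 2 groups that changed 1 factor, and the difference of the IMC effect between diets, cannot be told apart from any effect of that numbering. In the IMC effect averaged over diets the numbering is balanced. Nothing states that the numbers were processed apart.

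The libraries held 9632659 to 12601199 reads that fell on genes. Values are normalized read counts, in which each library was scaled by its own size factor. The deposited size factors put ethanol-fed libraries 0.19 higher than pair-fed ones on the log2 scale in the median over genes, and after rescaling over all 16 libraries that shift was -0.0024, so all values below are on the rescaled scale. Adjusted p-values are from limma over 12543 tested genes, a call means an adjusted p under 0.05 in limma on this scale unless another tool or setting is named, and standard errors (SE) are of the log2 fold change. Where 4 libraries did not overlap with 4 others, the exact permutation test over 70 divisions gave 0.0286, the smallest p it allows.

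The 6 stellate cell markers Lrat, Reln, Des, Hand2, Colec11 and Ecm1 had reads in every library, and no marker was at 0 in all libraries. Their summed normalized count was 2306 to 3601 in Pair vehicle, 2334 to 3048 in Pair IMC, 3239.99 to 4042 in EtOH vehicle and 1566 to 2143 in EtOH IMC. The sum in EtOH IMC lay below that in each of the other 12 libraries, and all 6 are themselves members of the list. Ecm1, listed here as a matrix glycoprotein, made up 31.8% to 54.5% of the sum. Without Ecm1 the sum was 1216 to 1917 in Pair vehicle, 1117 to 1484 in Pair IMC, 1878 to 2312 in EtOH vehicle and 1064 to 1462 in EtOH IMC, so that EtOH IMC overlapped with both pair-fed groups and not with EtOH vehicle. Of the 6 markers, Lrat, Des (0.37 ± 0.29) and Hand2 (-0.03 ± 0.43) were not called for IMC in ethanol-fed mice. DESeq2 called Lrat lower in that contrast. In whole liver RNA, fewer stellate cells and less RNA per stellate cell cannot be told apart.

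Sequences just upstream of the transcription start are shown for 5 genes that carry the main patterns: Reln and Ecm1, which were lowest in EtOH IMC, Col15a1, which was highest in EtOH vehicle, Lrat, which was higher with ethanol in both treatments, and Col5a3, which was highest in Pair IMC. Each is the 250 bases before the start in RefSeq, build GRCm38.p6, read 5′ to 3′ on the strand of the gene. Capitals mark matches, on either strand, to any of 5 short motifs of general promoters and of factors that act in stellate cells. For the TATA box, which places the start, the letters TATAAA were searched. The letters CCAAT were taken for the box of that name, bound by NF-Y. A GC box, bound by Sp1 and its relatives, was searched as GGGCGG. For AP-1, the Fos and Jun dimer, the letters were TGACTCA. The half-site of nuclear receptors was searched as AGGTCA.
Reln, chr5:22344706-22344955, minus strand: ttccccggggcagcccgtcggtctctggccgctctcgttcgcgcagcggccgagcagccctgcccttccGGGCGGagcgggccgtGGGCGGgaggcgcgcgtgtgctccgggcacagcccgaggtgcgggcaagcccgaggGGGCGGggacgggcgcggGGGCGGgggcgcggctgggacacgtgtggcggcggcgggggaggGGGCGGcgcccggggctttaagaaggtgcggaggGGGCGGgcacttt
Ecm1, chr3:95739570-95739819, minus strand: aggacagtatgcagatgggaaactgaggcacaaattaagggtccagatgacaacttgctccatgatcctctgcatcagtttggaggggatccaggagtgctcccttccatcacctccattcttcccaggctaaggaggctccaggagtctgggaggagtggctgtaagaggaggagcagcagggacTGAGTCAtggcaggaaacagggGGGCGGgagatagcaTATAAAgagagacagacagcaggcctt
Col15a1, chr4:47207762-47208011, plus strand: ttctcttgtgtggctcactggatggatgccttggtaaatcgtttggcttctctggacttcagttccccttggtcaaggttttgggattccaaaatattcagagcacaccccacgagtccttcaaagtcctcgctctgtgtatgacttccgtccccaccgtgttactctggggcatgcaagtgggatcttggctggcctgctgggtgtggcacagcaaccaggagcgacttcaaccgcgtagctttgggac
Lrat, chr3:82903975-82904224, minus strand: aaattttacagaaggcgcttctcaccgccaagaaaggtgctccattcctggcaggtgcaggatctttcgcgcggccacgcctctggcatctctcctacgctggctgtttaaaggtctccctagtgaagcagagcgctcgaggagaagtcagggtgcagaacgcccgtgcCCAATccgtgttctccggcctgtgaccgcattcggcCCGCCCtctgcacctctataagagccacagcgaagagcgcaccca
Col5a3, chr9:20815068-20815317, minus strand: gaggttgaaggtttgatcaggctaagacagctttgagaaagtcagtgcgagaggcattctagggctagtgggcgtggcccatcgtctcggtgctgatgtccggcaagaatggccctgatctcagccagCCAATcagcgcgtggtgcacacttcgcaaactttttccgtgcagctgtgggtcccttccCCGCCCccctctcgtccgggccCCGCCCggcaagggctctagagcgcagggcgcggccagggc

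The Reln window held 6 GC boxes, at 181, 165, 109, 91, 47 and 13 bases before the start. In Ecm1 an AP-1 site stood at -64, a GC box at -42 and a TATA box at -27. Lrat had a CCAAT box at -81 and a GC box at -45, Col5a3 had a CCAAT box at -122 and GC boxes at -63 and -41, and the Col15a1 window held none of these letters. A promoter of this kind was taken for 27 of the 39 members, with 29 promoters between them. Members on chromosome 18, Pdgfrb and Lox, were left out, while no chromosome was left out of the promoters of all genes. A member counted where any of its promoters matched, while the shares of all are by promoter, so the 2 measures differ. A GC box stood in 18 of these 27, against 32.7% of all 32851 promoters in the table, and a CCAAT box in 11 of 27, against 33.8%. A TATA box stood in 2 of 27 (Col3a1 and Ecm1), against 12.4%, an AP-1 site in 2 of 27 (Col6a1 and Ecm1), against 4.46%, and a half-site in 0 of 27, against 14.02%. Matches were counted by presence, whether or not they overlapped another match, and say nothing of binding.

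Per kilobase of exon, the levels in Pair vehicle ran over 3 orders of magnitude. Fn1, which encodes fibronectin, had 1914 ± 239.8 normalized counts per kb (SD, n = 4), and Col18a1, the collagen XVIII chain from which endostatin is cut, had 1842 ± 71.3. Ecm1, a secreted glycoprotein of the matrix, followed at 570.4 ± 102, then the proteoglycan gene Dcn at 332 ± 44.1 and the collectin gene Colec11 at 221 ± 67.4. The type I collagen genes, which dominate scar tissue, were low in these livers, with 11.8 ± 3.67 for Col1a2 and 7.78 ± 3.45 for Col1a1. Lox was lowest at 1.79 ± 1.77. Of the 38 neighbouring pairs in this order, Col18a1 and Ecm1, Ecm1 and Dcn, and Mmp14 and Rgs5 had libraries that did not overlap, and all other neighbours overlapped.

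Part of the list was lower with IMC in ethanol-fed mice. Of the 37 members tested, 13 were lower in EtOH IMC than in EtOH vehicle and 0 were higher, where 21.5% of all genes tested were called (11.1% lower and 10.4% higher). The median log2 fold change over members was -0.34, against -0.0015 over all genes. The largest falls were in the fibril-associated collagen Col14a1 (-1.37 ± 0.18, SE), in Reln (-1.26 ± 0.17), the gene of the secreted glycoprotein reelin, and in Ecm1 (-1.18 ± 0.15). The others were Col15a1, Col1a2, Col3a1, Col4a1, Col5a1, Col18a1, Pdgfrb, Sparc, Colec11 and Bgn. The libraries of both groups did not overlap for 17 members, all lower in EtOH IMC (25.3% of all genes did not overlap, 12.9% lower and 12.3% higher), among them Col6a3, Dcn, Fn1 and Lrat, which limma did not call, while DESeq2 called Col6a3, Fn1 and Lrat. At an unadjusted p under 0.05 limma had 19 lower and 0 higher members, and edgeR called 14 lower and DESeq2 17 lower, with 0 higher.

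Markers of other cells are given beside this count. Of 12 sinusoidal endothelial markers and 11 Kupffer cell and macrophage markers, 0 were called for IMC in ethanol-fed mice by limma, with 2 and 1 at an unadjusted p under 0.05, 0 of either by edgeR, and 1 and 0 by DESeq2. In that contrast limma called 21.5% of all genes. The summed endothelial markers were 6762 to 7732 in EtOH vehicle and 5888 to 7651 in EtOH IMC. The summed macrophage markers were 5434 to 7334 in EtOH vehicle and 3972 to 6291 in EtOH IMC. The 8 hepatocyte markers summed to 1159180 to 1273640 and 1038870 to 1318460. Of these, Hnf4a was called higher and Cyp2e1 lower. Bile duct, lymphocyte, neutrophil and mesothelial markers had 6, 2, 3 and 3 genes tested and 0 called by limma, edgeR or DESeq2, with 0, 1, 1 and 0 at an unadjusted p under 0.05 in limma. Of the 11 macrophage markers 10 were below 0, with a median log2 fold change of -0.24, as were both lymphocyte markers tested, and of the endothelial markers 7 of 12 were (median -0.03). Each of these sums overlapped between EtOH vehicle and EtOH IMC. The stellate marker sum did not, but its genes are all members of the list, Ecm1 and Reln among them. It therefore restates the member result and is no separate support. The part of other cells in the result was not tested.

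**Figure D1:**
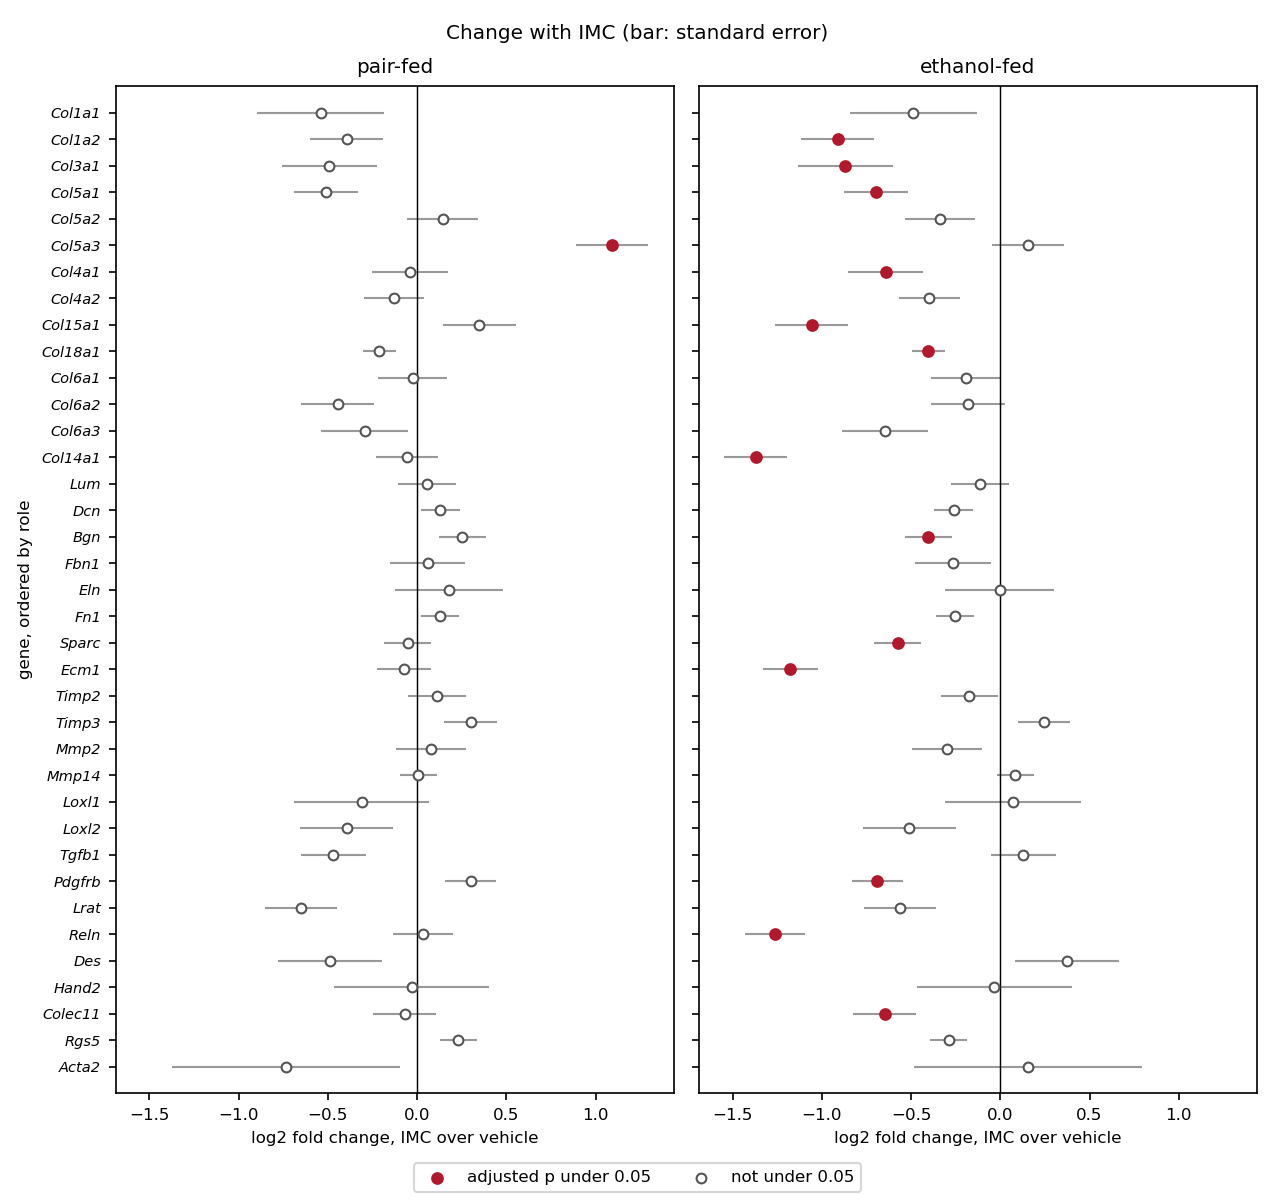
Log2 fold change with IMC (horizontal axis, IMC over vehicle) for the 37 tested genes, in order of role, in pair-fed and in ethanol-fed mice. Points are limma estimates, bars their standard errors, and filled points have an adjusted p under 0.05: Col5a3 alone on the left, at 1.09, and 13 genes on the right, all below 0.

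Few members were called for IMC in pair-fed mice, 1 by limma and 2 by edgeR and by DESeq2. Col5a3, a minor fibrillar collagen chain, was higher in Pair IMC (1.09 ± 0.20, adjusted p = 0.00356), and 0 of 37 members were lower by limma (5 at an unadjusted p under 0.05, and 1 called by edgeR and by DESeq2, Lrat), where 9.47% of all genes were called (4.31% higher, 5.16% lower). The median over members was -0.04. Libraries did not overlap for Col5a3, Timp3 and Pdgfrb, which were higher (7.38% of all genes), and for Col5a1, which was lower (6.94%), 14.3% of all genes in either direction. Lrat, which encodes the enzyme that esterifies retinol, was just short of a call at -0.65 ± 0.20 (adjusted p = 0.0503), and it was called lower without library 11, 14 or 15, as Col5a1 was without library 6, for a count of 2 in each case. Markers of other cells moved in this contrast too: all 12 endothelial markers were above 0 (median 0.15), with Ehd3 and Ptprb called, and all 6 bile duct markers were below 0 (median -0.98), with Krt7 called. Of 8 hepatocyte markers 4 were above 0 and 4 below (median 0.19), with Hnf4a called higher by limma and 3 called higher by DESeq2. The bile duct sum was 739.7 to 1282 in Pair vehicle and 629 to 709 in Pair IMC, and the part of these cells in the result was not tested.

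The effect of IMC differed between the diets for 5 members. Col15a1 (-1.40 ± 0.29), Col14a1 (-1.31 ± 0.25), Reln (-1.30 ± 0.24), Ecm1 (-1.11 ± 0.21) and Pdgfrb (-0.99 ± 0.20) had a lower log2 fold change with IMC under ethanol than under pair feeding, and 0 members a higher one by limma, edgeR or DESeq2 (1 at an unadjusted p under 0.05 in limma). In all genes, 1.11% were called in this contrast (0.789% lower, 0.319% higher). The median over members was -0.32. Without EtOH vehicle library 5 the count was 3, since the calls of Col15a1 and Pdgfrb were lost. DESeq2 called 8, adding Bgn, Col5a3 and Rgs5. Of the endothelial markers Ehd3 was called lower in this contrast and 8 of 12 were below 0 (median -0.20), 5 of 6 bile duct markers were above 0 (median 1.12) with 0 called by limma, edgeR or DESeq2 (3 at an unadjusted p under 0.05 in limma), and their part in the result was not tested.

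Averaged over both diets, the contrast in which the library numbering is balanced, IMC gave 11 lower members and 1 higher, Col5a3 (0.62 ± 0.14, adjusted p = 0.00375). Over all genes 28.1% were called (14% lower, 14.1% higher), and the median over members was -0.19, with 33 of 37 below 0. The lower members were Ecm1, Col14a1, Reln, Lrat, Colec11, Sparc and the collagens Col1a2, Col3a1, Col5a1, Col6a3 and Col18a1. Col6a3 was just called (adjusted p = 0.0495) and lost the call without any 1 of 12 libraries (up to 0.109, without library 4), the exceptions being libraries 1, 2, 9 and 14. In all, 17 of 26 alternatives lost it. Of the macrophage markers 10 of 11 were below 0 (median -0.14). So were all 6 bile duct markers (median -0.53) and both lymphocyte markers tested (median -0.60). Of the endothelial markers 10 of 12 were above 0 (median 0.10). By limma 0 of these were called, and edgeR and DESeq2 each called 1 macrophage marker lower. The part of these cells in the result was not tested.

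Chronic ethanol without IMC raised 9 members and lowered 0 by limma, edgeR or DESeq2 (1 lower at an unadjusted p under 0.05 in limma), where 11.9% of all genes were called (6.33% higher, 5.53% lower). Over members the median log2 fold change was 0.36. Col15a1, a collagen of the basement membrane zone, rose most (1.69 ± 0.20), followed by Lrat (1.16 ± 0.20), the metalloproteinase gene Mmp2 (0.94 ± 0.20), the lysyl oxidase-like gene Loxl2 (0.93 ± 0.26) and the metalloproteinase inhibitor gene Timp3 (0.74 ± 0.15). Pdgfrb, Bgn, Sparc and Dcn rose by less. Libraries of 10 members did not overlap, all higher with ethanol (19% of all genes did not overlap, 9.92% higher and 9.06% lower). Of the sinusoidal endothelial markers, 4 of 12 also rose (Ehd3, Ptprb, Tek and Cdh5), their sum being 5278 to 6287 in Pair vehicle and 6762 to 7732 in EtOH vehicle without overlap. Of the macrophage markers 10 of 11 were above 0 (median 0.32), and of the bile duct markers all 6 were below 0 (median -0.93), with 0 of either called by limma or edgeR, 0 and 1 by DESeq2, and 1 and 3 at an unadjusted p under 0.05 in limma. The part of these cells in the result was not tested. The count of members was 5 without library 5 or without library 10 and 14 without library 16, and on the deposited scale, which is higher in ethanol-fed libraries, it was 22, with Col1a1, Col4a2, Col6a1, Fbn1, Lum and Reln among those added.

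Under IMC, ethanol raised 4 members and lowered 5, where 16.4% of all genes were called (7.85% higher, 8.57% lower), and the median over members was 0.01. Lrat (1.25 ± 0.20), Des (0.997 ± 0.29), Loxl2 (0.81 ± 0.26) and Timp3 (0.69 ± 0.15) were higher in EtOH IMC than in Pair IMC. Col5a3 (-1.41 ± 0.20), Ecm1 (-0.98 ± 0.15), Col14a1 (-0.90 ± 0.18), Reln (-0.85 ± 0.17) and Fn1 (-0.40 ± 0.11) were lower. Libraries did not overlap for 5 higher and 5 lower members (9.36% and 9.83% of all genes, 19.2% in all). Of the endothelial markers 8 of 12 were above 0 (median 0.07), with Clec4g called higher. Of the hepatocyte markers 6 of 8 were below 0 (median -0.32), with Cyp2e1 called lower. Macrophage markers were above 0 in 8 of 11 (median 0.12), with 0 called by limma, edgeR or DESeq2 (1 at an unadjusted p under 0.05 in limma). The part of these cells in the result was not tested. The 4 comparisons of 2 groups share libraries, each group entering 2 of them.

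**Figure D2:**
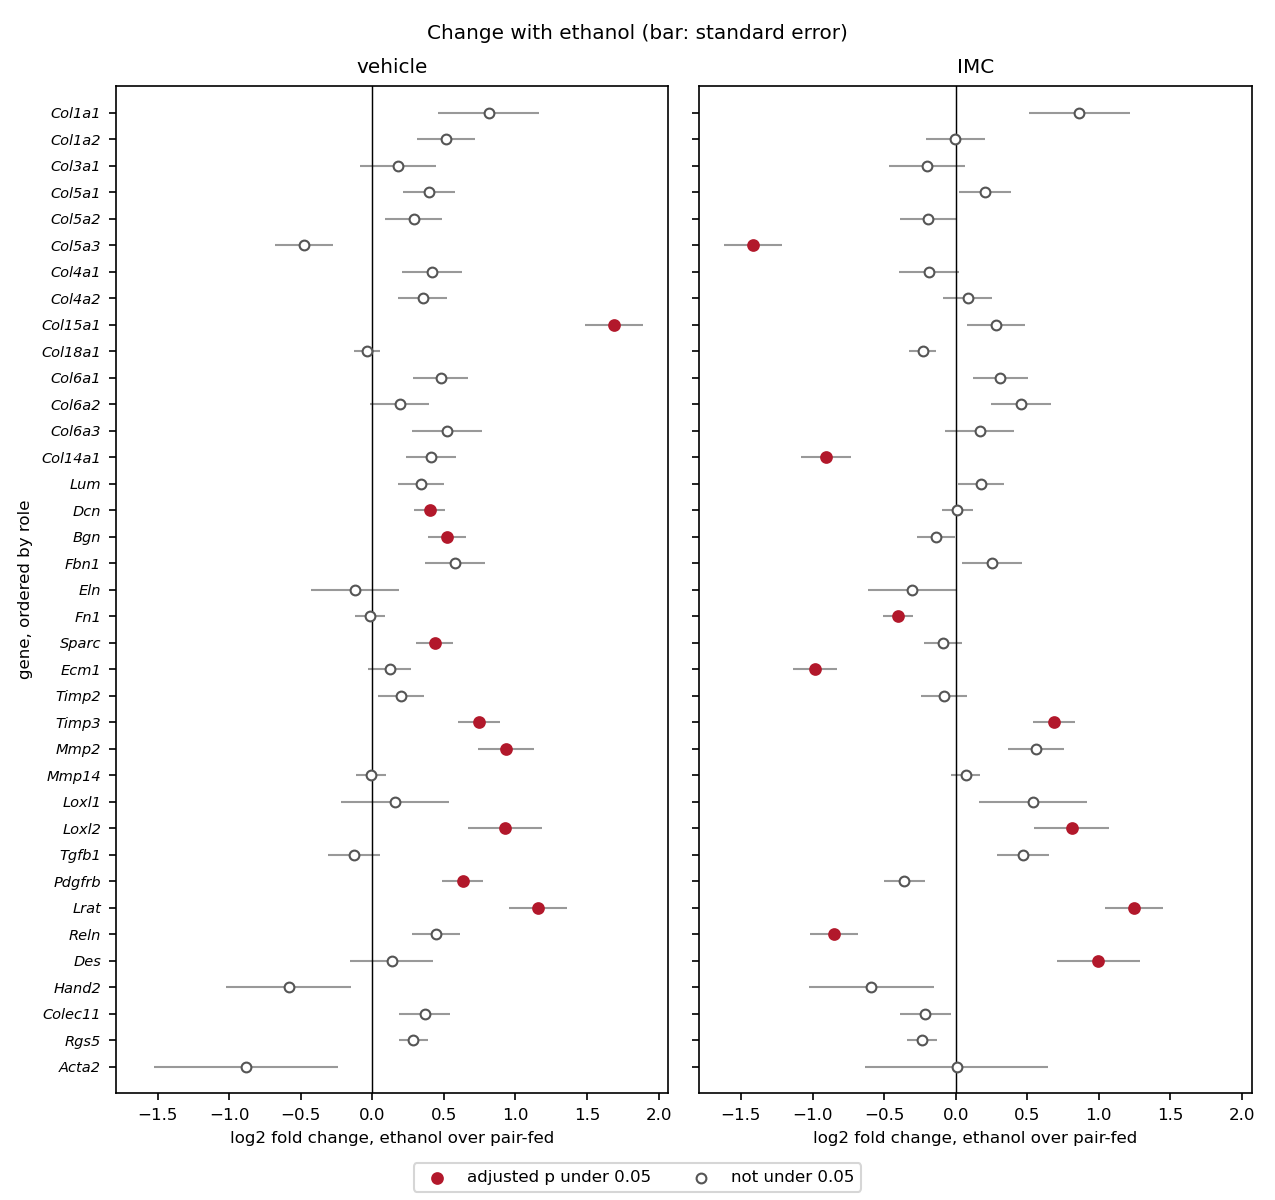
Log2 fold change with ethanol (horizontal axis, ethanol-fed over pair-fed) for the 37 tested genes, in order of role, without IMC (vehicle) and under IMC. Bars are standard errors and filled points have an adjusted p under 0.05: 9 genes above 0 on the left, 4 above and 5 below 0 on the right.

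Among stellate cell genes, Reln (ENSMUSG00000042453, chromosome 5, 21884454 to 22344702, GENCODE vM21 on GRCm38), whose upstream window with 6 GC boxes is printed above, was 642, 633, 664 and 877 in the 4 libraries of Pair vehicle and 824, 565, 651 and 855 in Pair IMC. In EtOH vehicle Reln was 982, 973, 1123 and 764, against 498, 437, 289 and 391 in EtOH IMC. Every EtOH IMC library was below all 12 others, and the pair-fed groups overlapped. IMC lowered Reln in ethanol-fed mice by a log2 fold change of -1.26 (adjusted p = 8.63e-05), was at 0.03 in pair-fed mice (adjusted p = 0.928), and the difference was -1.30 (adjusted p = 0.0133). Ethanol without IMC left Reln short of a call (0.45, adjusted p = 0.0901).

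Lrat (ENSMUSG00000028003, chromosome 3, 82892579 to 82903973), the gene of the enzyme that makes the retinyl esters stored in stellate cells, was 259.9, 340.4, 189.9 and 452 in Pair vehicle and 159, 195, 196 and 204 in Pair IMC. In EtOH vehicle Lrat was 611, 723, 694 and 622, above all 12 other libraries, and in EtOH IMC it was 459, 581, 455 and 329. Ethanol raised it with and without IMC, from 311 ± 113 to 663 ± 54.7 (SD, n = 4) in vehicle groups (adjusted p = 0.00202) and from 188 ± 19.8 to 456 ± 103 in IMC groups (adjusted p = 0.000679). With IMC the change was -0.56 ± 0.20 in ethanol-fed mice (adjusted p = 0.0556) and -0.65 ± 0.20 in pair-fed mice, neither called, and -0.61 ± 0.14 averaged over diets (adjusted p = 0.00441). Lrat in ethanol-fed mice was called without library 11, 14 or 16, and by quantile normalization, by DESeq2, by edgeR with upper quartiles and with only the libraries compared (lowest adjusted p 0.0165). The difference between diets was 0.09 ± 0.29, adjusted p = 0.912.

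Colec11, which encodes a collectin that binds microbial sugars and activates complement, was 229, 333, 376 and 492 in Pair vehicle and 357, 296, 298 and 369 in Pair IMC. In EtOH vehicle Colec11 was 468, 507, 393 and 416 and in EtOH IMC 318, 231, 261 and 335, with no overlap between the ethanol-fed groups. It fell with IMC under ethanol (-0.65 ± 0.18, adjusted p = 0.0158, or 0.0513 without library 11) and over both diets (-0.36 ± 0.13, adjusted p = 0.0408). The call over both diets was lost without any 1 of 10 libraries (up to 0.0816, without library 11), the exceptions being 2, 5, 8, 9, 10 and 15. In all, 11 of 27 alternatives lost it.

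Des, the gene of the intermediate filament protein desmin, was 66.1, 73.8, 56.6 and 62.4 in Pair vehicle and 67.5, 42.1, 41.3 and 36.7 in Pair IMC. In EtOH vehicle Des was 60.4, 85.99, 68.2 and 70.99 and in EtOH IMC 82.2, 204, 52.1 and 81.7. Library 11 of EtOH IMC stood far above the rest of its group, and EtOH IMC overlapped with Pair IMC. Des was called higher with ethanol under IMC (adjusted p = 0.0265, exact permutation p = 0.0571), a call lost without library 4, 6, 8 or 11 and when only the libraries compared were fitted (up to 0.0767). Hand2, a transcription factor of stellate cells, ranged over 6.01 to 32.8 in the 16 libraries and passed in none of the 6 contrasts. Its exons share 461 bases with Hand2os1 on the opposite strand, which was at 59.1 to 142, and whether counting used the strand is not stated.

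**Figure D3:**
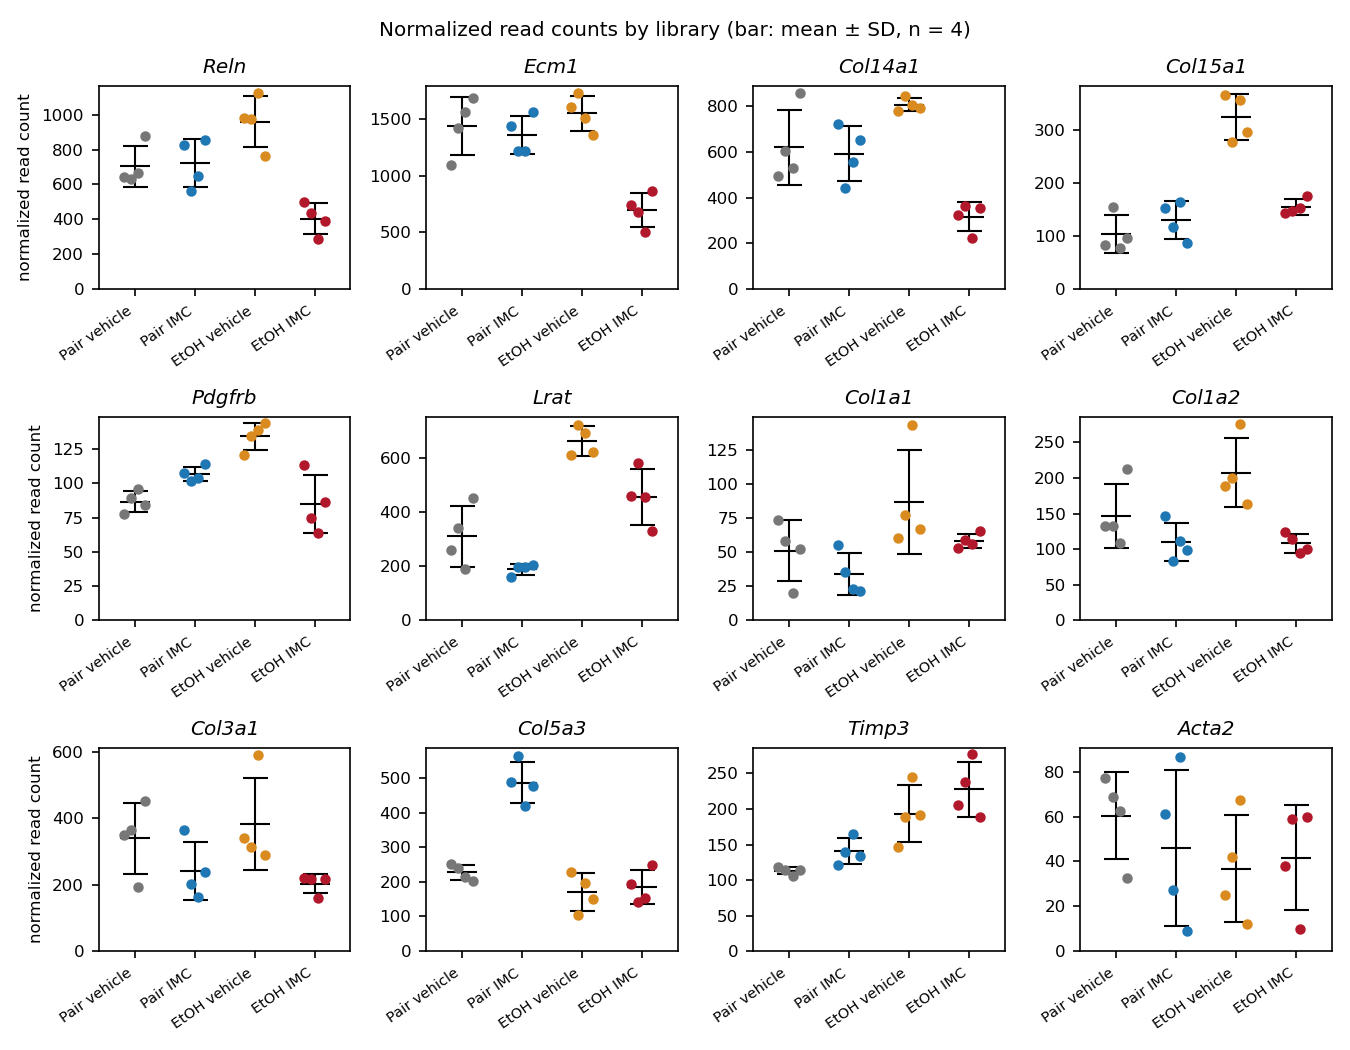
Normalized read counts in each library (points) with the mean and SD of each group of 4 (bars), for genes that carry the main patterns. Reln, Ecm1 and Col14a1 in EtOH IMC lie below all other libraries, Col15a1, Lrat and Pdgfrb in EtOH vehicle above them, and Col5a3 in Pair IMC above them.

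Of the 6 fibrillar collagen genes, 3 fell with IMC in ethanol-fed mice (Col1a2, Col3a1 and Col5a1) and 0 were called for ethanol without IMC by limma, edgeR or DESeq2 (4 at an unadjusted p under 0.05 in limma). Over all genes 11.1% were lower in the first contrast and 11.9% were called in the second. Counts by role are parts of the counts over members given above, not further results. Col1a1, the major chain of type I collagen, was 73.95, 58.05, 20.1 and 52.2 in Pair vehicle, 55.2, 35.3, 23.2 and 21.5 in Pair IMC, 60.4, 77.4, 143 and 66.9 in EtOH vehicle and 52.8, 58.8, 56.1 and 65.6 in EtOH IMC. Its values spread widely within groups, library 5 of EtOH vehicle being highest and library 14 of Pair vehicle lowest, and all groups overlapped with their comparison group. Col1a1 was 0.81 ± 0.35 with ethanol without IMC (adjusted p = 0.143) and -0.49 ± 0.35 with IMC under ethanol (adjusted p = 0.347), and limma called it in none of the 6 contrasts. It was called lower with IMC over both diets without library 14, higher with ethanol under IMC without library 2 or 14, and higher with ethanol in both treatments on the deposited scale.

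Col1a2, the other chain of type I collagen, was 132, 133, 109 and 213 in Pair vehicle and 146, 83.3, 112 and 98.8 in Pair IMC. In EtOH vehicle Col1a2 was 189, 199.9, 276 and 163, with no overlap with the 124, 114, 95.1 and 99.8 of EtOH IMC. It fell with IMC in ethanol-fed mice (-0.91 ± 0.20, adjusted p = 0.00448), and the change of 0.52 ± 0.20 with ethanol did not pass (adjusted p = 0.106). Col3a1, which forms the fine reticular fibres of the liver, was 349.6, 364, 192 and 450.4 in Pair vehicle and 364, 201, 162 and 237 in Pair IMC. In EtOH vehicle Col3a1 was 339, 314, 589 and 290.03 and in EtOH IMC 219, 216, 159 and 216. The ethanol-fed groups did not overlap, and library 5 stood above and library 13 below the rest of their groups. Col3a1 fell with IMC in ethanol-fed mice (-0.87 ± 0.27, adjusted p = 0.0269), and without library 5 or 13 the call was lost (up to 0.0988, without library 5).

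Collagen V starts and limits the thickness of collagen I fibrils. Col5a1 was 119, 121, 126 and 127 in Pair vehicle, 96.1, 57.8, 116 and 86.1 in Pair IMC, 156, 139.7, 203 and 157 in EtOH vehicle and 119, 80.1, 92.1 and 112 in EtOH IMC. Libraries given IMC were below the vehicle libraries of the same diet in both diets, with a call in ethanol-fed mice (-0.70 ± 0.18, adjusted p = 0.0105) and not in pair-fed mice (-0.51 ± 0.18, adjusted p = 0.0806), and the difference between diets was not called (-0.19 ± 0.25, adjusted p = 0.776). Averaged over diets Col5a1 fell by 0.60 on the log2 scale (adjusted p = 0.00201). Col5a2 ranged over 37.9 to 80.99 and was called in none of the contrasts.

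Col5a3 (ENSMUSG00000004098, chromosome 9, 20770050 to 20815067) moved differently from the other fibrillar chains. It was 252, 240.1, 214 and 203 in Pair vehicle and 489, 563, 418 and 476 in Pair IMC, and every Pair IMC library was above all 12 others. In EtOH vehicle Col5a3 was 229, 103, 195 and 150.1 and in EtOH IMC 194, 143, 154 and 249.98, which overlapped. Its mean was 2.13 times as high with IMC in pair-fed mice on the fitted scale (adjusted p = 0.00356), and 0.16 ± 0.20 was found in ethanol-fed mice (adjusted p = 0.622). The difference of -0.94 ± 0.29 between diets was not called by limma (adjusted p = 0.123), but was by DESeq2 and by limma without library 3 (lowest adjusted p 0.00571), and under IMC ethanol lowered Col5a3 (-1.41 ± 0.20, adjusted p = 0.00027).

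Among the basement membrane collagens and their relatives, 3 of 4 fell with IMC in ethanol-fed mice (11.1% of all genes). Of the same 4, Col15a1 rose with ethanol without IMC (6.33% of all genes). Col15a1 (ENSMUSG00000028339, chromosome 4, 47208161 to 47313167) was 82.9, 155, 77.9 and 97.3 in Pair vehicle and 153, 117, 165 and 87.4 in Pair IMC. In EtOH vehicle Col15a1 was 366, 278, 357 and 297, above all 12 other libraries, and in EtOH IMC it was 144, 147, 152 and 176. The rise with ethanol was 3.22-fold without IMC (adjusted p = 0.000139), and with IMC Col15a1 fell under ethanol (-1.06 ± 0.20, adjusted p = 0.00176). Ethanol under IMC gave 0.28 ± 0.20 (adjusted p = 0.37). The difference of the IMC effect between diets (adjusted p = 0.0265) lost its call without library 1, 2, 5, 6, 13 or 14 (up to 0.064, without library 5).

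Col18a1, at 13399.7, 12944, 13161 and 12238 in Pair vehicle and 13028, 9702, 10357 and 11834 in Pair IMC, had the smallest standard errors among the collagens. In EtOH vehicle Col18a1 was 12848, 12609, 12687 and 12181 and in EtOH IMC 9796, 9295, 9069 and 9879, with no overlap between them. It fell with IMC under ethanol (-0.40 ± 0.09, adjusted p = 0.0051) and was not called for ethanol without IMC (-0.04 ± 0.09, adjusted p = 0.817). Col4a1, a chain of the collagen IV network, was 489.6, 551, 307 and 488 in Pair vehicle and 563, 363, 325 and 545 in Pair IMC. In EtOH vehicle Col4a1 was 585, 536, 757 and 543 and in EtOH IMC 508, 292, 336 and 433. The ethanol-fed groups did not overlap, and the fall with IMC (-0.64 ± 0.21, adjusted p = 0.0375) lost its call without library 1, 3, 5, 7, 11 or 13 (up to 0.117, without library 5). In all, 8 of 28 alternatives lost that call. Col4a2, which is read from a start shared with Col4a1 in the opposite direction, ranged over 195 to 403 and was called in none of the contrasts (-0.40 ± 0.17 for IMC under ethanol, adjusted p = 0.104).

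Of the collagen VI chains, which form beaded filaments near cells, Col6a1 ranged over 63.95 to 174 and Col6a2 over 25.2 to 72.7, and neither was called. Col6a3 was 109, 86.6, 57.8 and 116 in Pair vehicle and 117, 49.95, 64.5 and 73.5 in Pair IMC. In EtOH vehicle Col6a3 was 107, 121, 165 and 126 and in EtOH IMC 106, 68.2, 86.1 and 71.3. The ethanol-fed groups just missed each other, and IMC under ethanol gave -0.65 ± 0.24 (adjusted p = 0.0663), which was called by DESeq2, with only the libraries compared, and without library 2, 9 or 14. Averaged over diets Col6a3 was -0.47 ± 0.17. Col14a1 (ENSMUSG00000022371, chromosome 15, 55307750 to 55520803), which binds to the surface of collagen fibrils, was 493, 604, 529 and 856 in Pair vehicle and 723, 439.8, 557 and 649.7 in Pair IMC. In EtOH vehicle Col14a1 was 780.04, 845, 806 and 792 and in EtOH IMC 322, 364, 225 and 354. As for Reln, each EtOH IMC library was below all 12 others. The level fell 2.59-fold with IMC under ethanol (adjusted p = 7.01e-05), while pair-fed mice gave -0.06 ± 0.18 (adjusted p = 0.877), and the difference was called (adjusted p = 0.0166).

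The small leucine-rich proteoglycans bind collagen fibrils and growth factors, and 2 of 3 rose with ethanol without IMC (6.33% of all genes). Dcn, the gene of decorin, was 1703, 1973, 1792 and 2286 in Pair vehicle and 2268, 1926, 1952 and 2316 in Pair IMC. In EtOH vehicle Dcn was 2483, 2787, 2485 and 2439, above all 12 other libraries, and in EtOH IMC 2267, 2199, 1724 and 2368. The rise with ethanol (0.40 ± 0.11, adjusted p = 0.0243) was lost without library 3, 5, 10 or 14 (up to 0.0698, without library 10). Bgn, the gene of biglycan, was 625, 710.4, 805 and 995 in Pair vehicle and 1105, 797, 792 and 1032 in Pair IMC. In EtOH vehicle Bgn was 1107, 1091, 1157 and 1074 and in EtOH IMC 867, 817, 726 and 953. It overlapped with neither comparison group, rising with ethanol (0.52 ± 0.13, adjusted p = 0.0185, up to 0.0562 without library 5 or 10) and falling with IMC under ethanol (-0.40 ± 0.13, adjusted p = 0.038). The fall lost its call without library 1, 3, 5, 7, 9, 11 or 13 (up to 0.114, without library 13), and under 8 of 28 alternatives in all. Lum, the gene of lumican, ranged over 95.6 to 196 and was called in none of the contrasts.

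Of the 5 other matrix glycoproteins, Ecm1 and Sparc fell with IMC in ethanol-fed mice (11.1% of all genes). Ecm1 (ENSMUSG00000028108, chromosome 3, 95734147 to 95739569), which in liver is known to keep transforming growth factor beta in its latent form, was 1090.2, 1418, 1559.6 and 1684 in Pair vehicle and 1436, 1217, 1219.5 and 1564 in Pair IMC. In EtOH vehicle Ecm1 was 1604, 1729.6, 1505 and 1362 and in EtOH IMC 739, 681, 502 and 862. Every EtOH IMC library was below all 12 others, and the other 3 groups overlapped. The mean fell from 1550.1 ± 156 to 696 ± 149.98 (SD, n = 4) with IMC under ethanol, 2.26-fold (adjusted p = 7.23e-05). Pair-fed mice gave -0.07 ± 0.15 (adjusted p = 0.812), and the difference was called (-1.11, adjusted p = 0.0192).

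Sparc, which encodes a collagen-binding protein of remodelled matrix, was 529, 604, 472 and 695 in Pair vehicle and 673, 459, 526 and 559 in Pair IMC. In EtOH vehicle Sparc was 759, 773, 806 and 742, above all 12 other libraries, and in EtOH IMC 503, 452, 485 and 647. It fell with IMC under ethanol (-0.57 ± 0.13, adjusted p = 0.0051) and rose with ethanol (0.44 ± 0.13, adjusted p = 0.0381), the rise being lost without library 1, 3, 5, 7, 10, 12 or 14 (up to 0.122, without library 14). In all, 8 of 28 alternatives lost the rise. Fn1 was 20746, 26416, 22019 and 20268 in Pair vehicle and 24452, 22196, 26129.5 and 24725 in Pair IMC. In EtOH vehicle Fn1 was 22818, 21193, 23826 and 20247 and in EtOH IMC 18375, 19548, 18735 and 17119.5. Each EtOH IMC library was below all 12 others, although the call was reached for ethanol under IMC (-0.40 ± 0.11, adjusted p = 0.0161) and, by limma, not for IMC under ethanol (-0.25 ± 0.11, adjusted p = 0.0962, or 0.0254 by DESeq2, a call). The call was lost without library 6 or 15, with quantile normalization and on the deposited scale (up to 0.147). Fbn1, the fibrillin of elastic microfibrils, ranged over 31.9 to 70.8 and Eln, the gene of elastin, over 20.4 to 56.3, and neither was called.

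Matrix proteases and their inhibitors were called for ethanol in 2 of 4 tested members and for IMC in 0 of 4 in the 4 IMC contrasts by limma, edgeR or DESeq2 (1, Timp3 averaged over diets, at an unadjusted p under 0.05 in limma). Over all genes ethanol called 11.9% without IMC and 16.4% under it, and the IMC contrasts called 1.11% to 28.1%. Without library 15 limma, edgeR and DESeq2 called that Timp3 difference, higher with IMC, and limma did so without library 2 or 5. Mmp2, a gelatinase that cuts denatured collagen and collagen IV, was 17.9, 25.6, 23.6 and 28.7 in Pair vehicle and 33.7, 22.5, 25.2 and 20.3 in Pair IMC. In EtOH vehicle Mmp2 was 56.8, 44.1, 44.3 and 40.6 and in EtOH IMC 40.7, 40.9, 32.03 and 36.1. The vehicle groups did not overlap, and the rise was 1.91-fold (adjusted p = 0.00577). Under IMC ethanol gave 0.56 ± 0.20 (adjusted p = 0.0591), called without library 2 or 10 and on the deposited scale. Timp3, an inhibitor of metalloproteinases that binds to the matrix, was 119, 114, 106 and 114 in Pair vehicle and 122, 140.1, 165 and 134 in Pair IMC. In EtOH vehicle Timp3 was 147, 189, 245 and 192 and in EtOH IMC 206, 239, 277 and 188. All 8 ethanol-fed libraries were above the pair-fed libraries of the same treatment, with 0.74 ± 0.15 without IMC (adjusted p = 0.00396) and 0.69 ± 0.15 under IMC (adjusted p = 0.00458). Its exons share 1733 bases with Syn3 on the opposite strand, which was at 8.18 to 18.1. Timp1, the inhibitor gene known to rise in injured liver, was near 0 throughout, with 1.12, 12.8, 0 and 0 in Pair vehicle, 0, 2.94, 0 and 0 in Pair IMC, 0, 4.2997, 3.41 and 1.01 in EtOH vehicle and 2.596, 2.56, 3.003 and 0 in EtOH IMC, and a difference was not detectable at this depth. Mmp14, which activates the Mmp2 product at the cell surface, ranged over 542 to 786 and Timp2 over 97.9 to 172, and neither was called.

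Of the lysyl oxidases, Loxl2 was 21.3, 26.6, 18.9 and 42.996 in Pair vehicle and 24.5, 18.6, 21.2 and 15.2 in Pair IMC. In EtOH vehicle Loxl2 was 50.5, 52.7, 66.5 and 36.5 and in EtOH IMC 29.4, 34.1, 30.03 and 50.4. The vehicle groups overlapped through library 16 of Pair vehicle (exact permutation p = 0.0571), and the groups given IMC did not. Loxl2 was called higher with ethanol without IMC (adjusted p = 0.0286) and under IMC (adjusted p = 0.041). The first call was lost without library 1, 3, 5, 10 or 14 (up to 0.0963, without library 5) and the second without library 1, 3, 4, 6, 8, 11, 13 or 15 (up to 0.179, DESeq2 without library 15). In all, 6 of 27 alternatives lost the first and 12 of 27 the second. Its gene ID is also listed under the symbol Gm21451. Loxl1 ranged over 5.07 to 19.6 and was not called, and Lox, at 0 to 18.7, was not tested.

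Pdgfrb, the receptor through which platelet-derived growth factor makes stellate cells divide, was 77.3, 89.5, 95.6 and 83.9 in Pair vehicle and 107, 102, 104 and 114 in Pair IMC. In EtOH vehicle Pdgfrb was 121, 134, 139 and 144, above all 12 other libraries, and in EtOH IMC 113, 74.97, 64.1 and 86.5. With ethanol it rose (0.63 ± 0.14, adjusted p = 0.00943), and with IMC under ethanol it fell (-0.69 ± 0.14, adjusted p = 0.00276). In pair-fed mice the groups did not overlap, with IMC higher, but the change was not called (0.30 ± 0.14, adjusted p = 0.192). The difference between diets was called (adjusted p = 0.0252) and lost without library 3, 5, 7 or 8 (up to 0.0599, without library 5), and under 5 of 27 alternatives in all. Tgfb1, the main profibrotic growth factor, was 71.7, 94.5, 53.1 and 57.3 in Pair vehicle and 56.2, 42.1, 55.4 and 41.8 in Pair IMC. In EtOH vehicle Tgfb1 was 64.03, 56.97, 71.6 and 54.8 and in EtOH IMC 83.1, 58.8, 65.1 and 64.6. The change of 0.47 ± 0.18 with ethanol under IMC was not called (adjusted p = 0.0876), though the groups did not overlap. It passed on the deposited scale (adjusted p = 0.0125).

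Acta2, the smooth muscle actin gene used as a marker of activated stellate cells, was 77.3, 68.9, 62.5 and 32.8 in Pair vehicle and 61.3, 27.4, 86.7 and 8.87 in Pair IMC. In EtOH vehicle Acta2 was 25.2, 41.9, 67.3 and 12.2 and in EtOH IMC 38.1, 58.8, 10.01 and 59.9. Libraries of each group ranged widely, and all groups overlapped. The standard error of its fold change between 2 groups was 0.64 on the log2 scale, the largest in the list, and the smallest adjusted p over the contrasts was 0.388 (-0.88 with ethanol without IMC). Rgs5, a regulator of G protein signalling in pericytes, ranged over 369 to 573 and was called by limma in none of the contrasts, with -0.29 ± 0.10 for IMC under ethanol (adjusted p = 0.0545). That difference was called lower by edgeR, by DESeq2, with quantile normalization, with a mean of at least 100, and without library 12 or 15 (lowest adjusted p 0.00778), and DESeq2 also called Rgs5 for the difference between diets.

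Over the list, 22 of the 37 tested genes were called in at least 1 of the 6 contrasts and 15 in none. Single contrasts called 1.11% to 28.1% of all genes. The share of all genes called in at least 1 contrast was not computed, so no excess can be read from this count. Nor was a share computed for the shared calls below. Bgn, Col15a1, Pdgfrb and Sparc were both higher with ethanol without IMC and lower with IMC in ethanol-fed mice, 2 comparisons that share the EtOH vehicle libraries. Lrat, Loxl2 and Timp3 were higher with ethanol in both treatments. Col14a1, Ecm1 and Reln were lower with IMC in ethanol-fed mice and lower with ethanol under IMC, 2 comparisons that share the EtOH IMC libraries.

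Correlations between members within groups are described without a test. After each group mean was taken out, the median correlation over 666 pairs of members was 0.28 and 540 pairs were above 0, over 16 libraries that each supply all members, with 12 residual degrees of freedom. Pairs of other genes were not correlated, so whether members vary together more than other genes do was not tested. The closest pairs were Col14a1 with Dcn (r = 0.92), the neighbouring genes Col4a1 with Col4a2 (r = 0.90), and Dcn with Ecm1 (r = 0.89). Col1a1 with Col3a1 had r = 0.81, and the lowest was Timp3 with Ecm1 (r = -0.59). Library 5 of EtOH vehicle stood highest, with 36 of 37 members above their mean over all libraries and a mean deviation of 0.544 on the log2 scale. The like share over all genes was not computed. Its summed Col1a1, Col1a2 and Col3a1 was 1009, against 520.2 to 591 in the other libraries of EtOH vehicle. Library 13 of EtOH IMC was lowest at -0.336, then library 4 of Pair IMC at -0.287 and library 14 of Pair vehicle at -0.274. Without library 5, IMC in ethanol-fed mice gave 10 members called in place of 13.

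**Figure D4:**
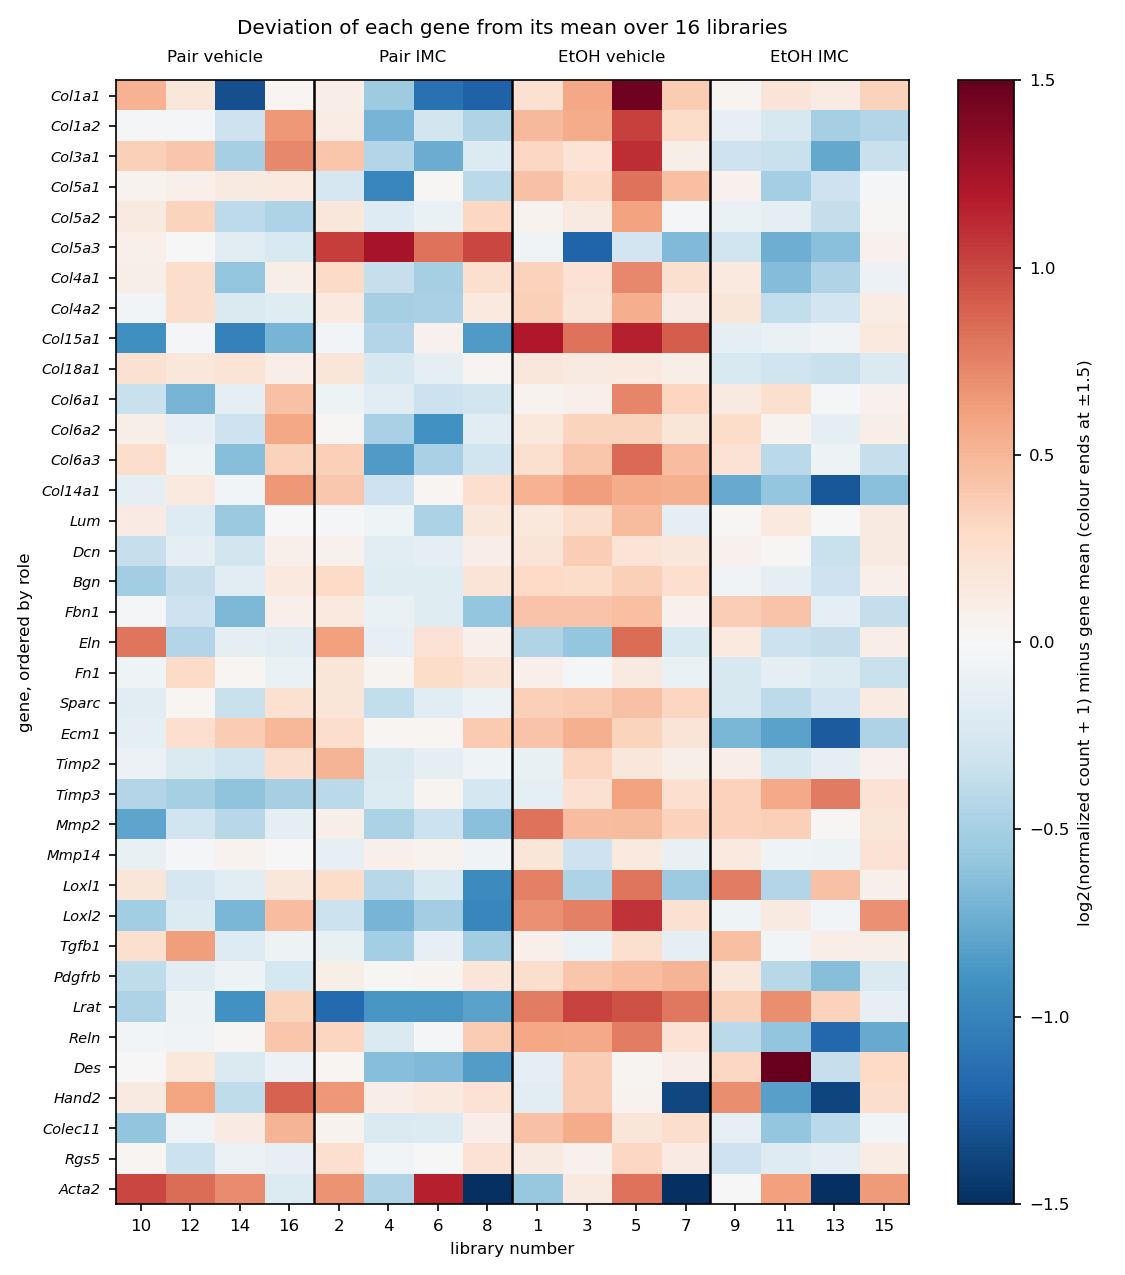
Deviation of each tested gene (rows, in order of role) from its mean over the 16 libraries (columns, by group), in log2 units, with the colour scale ended at 1.5 in either direction. EtOH vehicle columns are mostly above the mean, library 5 most, and library 13 of EtOH IMC is mostly below it.

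Other genes of matrix production and stellate cells were taken from fixed lists, whose counts are given beside the share of all genes called. Among 26 other matrix glycoproteins and collagens, IMC in ethanol-fed mice lowered 8 (30.8%, against 11.1% of all genes lower) and raised 0 by limma, edgeR or DESeq2 (0 at an unadjusted p under 0.05 in limma), led by Ltbp4 (-1.08, adjusted p = 2.32e-05), which binds latent transforming growth factor beta, Postn (-1.12, adjusted p = 0.000383), the gene of periostin, and Col27a1 (-0.69, adjusted p = 0.000812). For Postn (-1.37, adjusted p = 0.0133) and Ltbp4 (-0.80, adjusted p = 0.0385) the difference between diets was also called. In pair-fed mice 0 of these 26 were called by limma, edgeR or DESeq2, with 3 at an unadjusted p under 0.05 in limma, which called 9.47% of all genes. Of 15 laminins, nidogens and perlecan, 2 fell with IMC under ethanol (13.3%, near the 11.1% of all genes), Lamb3 (-1.34, adjusted p = 0.000114) and Lama1 (-1.29, adjusted p = 0.00368). Lamb3 alone rose with ethanol without IMC (0.87, adjusted p = 0.00635), 6.67% of the list and near the 6.33% of all genes higher.

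Of 17 enzymes that fold and process collagen, 3 rose with ethanol without IMC (17.6%, against 6.33% of all genes higher) and 4 under IMC (23.5%, against 7.85%), while 14 and 13 were not called. Among both, Plod1, a lysyl hydroxylase (0.90, adjusted p = 6.32e-05), Serpinh1, the collagen chaperone (1.03, adjusted p = 0.00756), and Colgalt1, which glycosylates collagen (0.36, adjusted p = 0.0317), were higher. With IMC under ethanol 2 rose (P3h1 and Plod3, 11.8%, against 10.4% of all genes higher) and Bmp1, which cleaves procollagen (-0.29, adjusted p = 0.0216), fell. That fall is 5.88% of the list, below the 11.1% of all genes lower. Of 18 other matrix-degrading enzymes and inhibitors, Mmp19 (0.92, adjusted p = 3.55e-05) and Mmp12 (2.04, adjusted p = 0.0197), a macrophage elastase, rose with ethanol without IMC (11.1%, against 6.33% of all genes higher). Both fell with IMC under ethanol (-0.44, adjusted p = 0.00454 and -1.85, adjusted p = 0.0195), with Reck and Adamts5 (4 of 18, 22.2%, against 11.1% of all genes lower).

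Of 20 genes of transforming growth factor beta and platelet-derived growth factor signalling, 0 were called for IMC in ethanol-fed mice by limma or edgeR and 1 by DESeq2, with 4 at an unadjusted p under 0.05 in limma. In that contrast limma called 21.5% of all genes. Ethanol without IMC raised the receptors Tgfbr2 (0.75, adjusted p = 0.00173) and Pdgfra (0.78, adjusted p = 0.00445) and lowered Smad4 (-0.38, adjusted p = 0.0178) and Smad7, 20.0% of the list against 11.9% of all genes called. Among 17 other stellate and fibroblast genes, IMC under ethanol raised Pparg (0.75, adjusted p = 0.00365), a receptor associated with quiescent stellate cells and also with fat storage in hepatocytes, and lowered Ngfr (-0.84, adjusted p = 0.0158) and Vipr1 (-0.32, adjusted p = 0.0302). These 3 are 17.6% of that list, below the 21.5% of all genes called in either direction. Of 11 smooth muscle and myofibroblast genes 2 fell (18.2%, against 11.1% of all genes lower and 21.5% called in either direction), Mylk (-1.05, adjusted p = 5.67e-05) and Tpm2 (-1.55, adjusted p = 0.012), and Mylk fell also in pair-fed mice (-0.48, adjusted p = 0.0297).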

How the data were processed

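Liver RNA was extracted with lipid tissue columns, and libraries were made with a directional TruSeq kit; the labels describe paired 100-base reads and the methods single-end reads. The submitters' processing notes name Trim Galore, FastQC, STAR, edgeR and mm10; the read counter and its strand setting are not given in the sources used here. The authors deposited signal values, which are read counts over a size factor specific to the library: in every library 100% of values were whole multiples, within 0.01, of what a single read is worth. The table held 27212 rows for 24082 gene IDs.

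Values were rescaled by a median ratio over all 16 libraries. limma 3.58.1 (R 4.3.3) was fitted to log2(value + 1) of the 12543 genes that reached 10 in 4 libraries or more. It had 1 mean per group and a mean-variance trend; tests were two-sided, and p-values were adjusted by Benjamini and Hochberg. Fold changes on this scale understate changes of low genes. Single values were also compared by a two-sided exact permutation test over 70 divisions. The model was tested on simulated data. Alternatives were the deposited scale, quantile normalization, pseudocounts of 0.1 and 5, no filter, a mean of at least 100, only the libraries compared, each library left out, and tests of whole reads by edgeR 4.0.16 or DESeq2 1.42.0. On these reads edgeR with TMM called 1156 genes for IMC in pair-fed, 2771 in ethanol-fed mice, 119 for the difference, 1552 for ethanol without IMC and 2029 under IMC. In library 15, 1 read is worth 1.01, so whole reads are least secure there, and both count tests were also run without it, a choice made after seeing the data.

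The labels do not tie libraries to animals or cages, so p-values measure the spread between these libraries. Members and gene lists were chosen with earlier results of these data known. Members called in any contrast, and Col1a1, Col1a2, Col3a1, Acta2, Timp1, Lrat, Des, Tgfb1 and Pdgfrb whatever their values, are given in every library; of other lists at most 3 called genes a contrast are given with values. Positions are from GENCODE vM21 on GRCm38. Counting error alone does not cover the spread between libraries.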

Additional observations from a re-analysis of the deposited data

Results flagged for a closer look

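In groups of 4, a library was marked where its gap to the nearest other library, divided by the range of the group, was above Dixon's critical value. Of 152 groups of values (37 members and their mean, in each of 4 groups), 4 held such a library, where chance gives about 7.6. In EtOH IMC, library 13 had 159 for Col3a1, where the others had 216 to 219 (ratio 0.951). Dcn was 2787 in library 3 of EtOH vehicle against 2439 to 2485 (ratio 0.859). Fbn1 was 53.7 in library 7 of EtOH vehicle against 69.4 to 70.8 (ratio 0.931). Reln was 877 in library 16 of Pair vehicle against 633 to 664 (ratio 0.851).

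The effect of IMC differed between ethanol-fed and pair-fed mice, by the test of the difference in limma, for 5 members. The difference, ethanol-fed minus pair-fed, was -1.40 for Col15a1 (adjusted p = 0.0265), -1.31 for Col14a1 (adjusted p = 0.0166), -1.30 for Reln (adjusted p = 0.0133), -1.11 for Ecm1 (adjusted p = 0.0192) and -0.99 for Pdgfrb (adjusted p = 0.0252). For Col14a1, Reln and Ecm1 the EtOH IMC libraries were the lowest of all 16. For Col15a1 and Pdgfrb the EtOH vehicle libraries were the highest of all 16. The difference cannot be told apart from any effect of the library numbering.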

How the results depend on the processing

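No paired analysis was possible because the library numbers 1 to 16 are each used once and no number is shared between groups. Of 49 calls of members, 34 held under every alternative run and 15 were lost under at least 1, and 0 changed direction. Of 1350 values of called members under alternatives, 1251 kept their call and 99 did not. For IMC in pair-fed mice the count of members called was 1, and 2 with a mean of at least 100, edgeR with TMM or upper quartiles, DESeq2, and both count tests without library 15. For the difference between diets it was 5, and 8 with DESeq2 and 9 with DESeq2 without library 15. For ethanol without IMC it was 9, and 22 on the deposited scale. With each library left out the counts ran from 1 to 2 for IMC in pair-fed mice, from 10 to 15 in ethanol-fed mice, from 10 to 15 over both diets, from 3 to 6 for the difference, from 5 to 14 for ethanol without IMC and from 6 to 11 under IMC. The cause was not tested. Over all genes, IMC in pair-fed mice called 1188, against 691 with only the libraries compared and 537 without library 4 or 543 without library 6. The difference called 139, against 339 with DESeq2, 261 with DESeq2 and 73 with edgeR without library 15, 80 with no filter, and 54 to 84 without library 1, 2, 3, 5, 6, 7, 8, 12, 13, 14 or 15. Ethanol called 1488 without IMC and 2060 under IMC, against 3000 and 3624 on the deposited scale; without IMC it called 974 without library 14 and 802 without library 5, and under IMC 1364 with limma and 1348 with edgeR without library 15. Depth limits Timp1, Lox, Loxl1 and Hand2, whose libraries held few reads.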
